A study of Homo sapiens with 2 samples.

Results

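The genes described here encode the proteins with which a cell detects foreign or misplaced RNA in its cytosol and endosomes, together with the first steps of the signal that follows. The 10 members were chosen by name out of 25938 gene names on the array, as DDX58, IFIH1, DHX58, TLR3, EIF2AK2, ADAR, MAVS, TBK1, IKBKE and IRF3. Every non-control probe that carries 1 of these names was taken, which gave 15 probes of 1 spot each. Of the 10 genes, 4 had more than 1 probe and 6 had 1 probe.

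RNA was measured in MKN74 and MKN45, established human gastric cancer cell lines, 48 hrs after electroporation of 50 nM siRNA. In each line, cells given siRNA against SET7/9 (the lysine methyltransferase encoded by SETD7) were compared on 1 two-colour array with cells given a negative control siRNA. SET7/9 knockdown RNA was in Cy5 and control RNA in Cy3 on both arrays, with no dye swap, so that a dye effect and a knockdown effect cannot be told apart. Which of the study's SET7/9 siRNAs was hybridised is not given in the sources used here. Both groups received duplex RNA, so every value below compares an siRNA with another siRNA, and untransfected cells are not among the samples. With 1 array for each cell line there was no replicate, and the errors given with the ratios are those of the scanner software for a single measurement, not a spread between cultures.

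In cells, DDX58 (the RIG-I helicase, now named RIGI) and IFIH1 (the MDA5 helicase) bind viral or unusual duplex RNA in the cytosol and signal through MAVS on the mitochondrion. TLR3 detects duplex RNA in endosomes. Both routes reach the kinases TBK1 and IKBKE, which phosphorylate the transcription factor IRF3 and so turn on interferon and chemokine genes, while EIF2AK2 (PKR) stops translation and ADAR edits duplex RNA and limits sensing. Several of these genes are themselves interferon inducible.

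SETD7, the targeted gene, was read first as a check of the labels. At SETD7 probe 1 the signal was 369 with the control siRNA and 90.1 with the SET7/9 siRNA in MKN74, and 197 and 51.2 in MKN45. On the log2 scale, SET7/9 siRNA over control gave -2.03 ± 0.28 (scanner error) for MKN74 and -1.95 ± 0.28 for MKN45. SETD7 probe 2, which was designed on another transcript record, gave 0.24 ± 0.22 and -0.23 ± 0.21. Knockdown was therefore seen at 1 of the 2 SETD7 probes in each line. Epithelial markers (CDH1, EPCAM, KRT8, KRT18 and KRT19) were well above background in the control channel of both lines, 5 of 5 in each. Gastric mucosa markers were detected for 4 of 6 genes in MKN74 and 5 of 6 in MKN45, with GKN1 undetected in both and TFF2 undetected in MKN74. Of 6 leukocyte markers, CD14 was detected in MKN74, and CD14 and PTPRC in MKN45, and of 4 fibroblast markers COL1A1 was detected in both lines.

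All 15 member probes were well above background in both channels on both arrays. Of all probes, 18582 of 34124 in MKN74 and 20281 of 34126 in MKN45 were so in both channels. Control signals of the members spanned 25.1 to 6751 in the MKN74 array and 22.6 to 4236 in the MKN45 array, where the lowest signal called well above background was 17.4 and 15.9. DDX58 probe 2, DHX58 and IKBKE lay close to that limit in MKN45, and IKBKE did so in MKN74 as well. After SET7/9 knockdown most member probes stayed within the scanner error of no change, with 12 of 15 in MKN74 and 13 of 15 in MKN45 closer to 0 than their own error. The share of all probes within their error was not counted, so this is not read as particular to the members. A fold of 1.5, which is 0.58 on the log2 scale, was the cutoff. TLR3 was past it in the lower direction in MKN74, DDX58 probe 2 was past it in the higher direction in MKN45, and no other member probe was past it in either line.

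**Figure D1:**
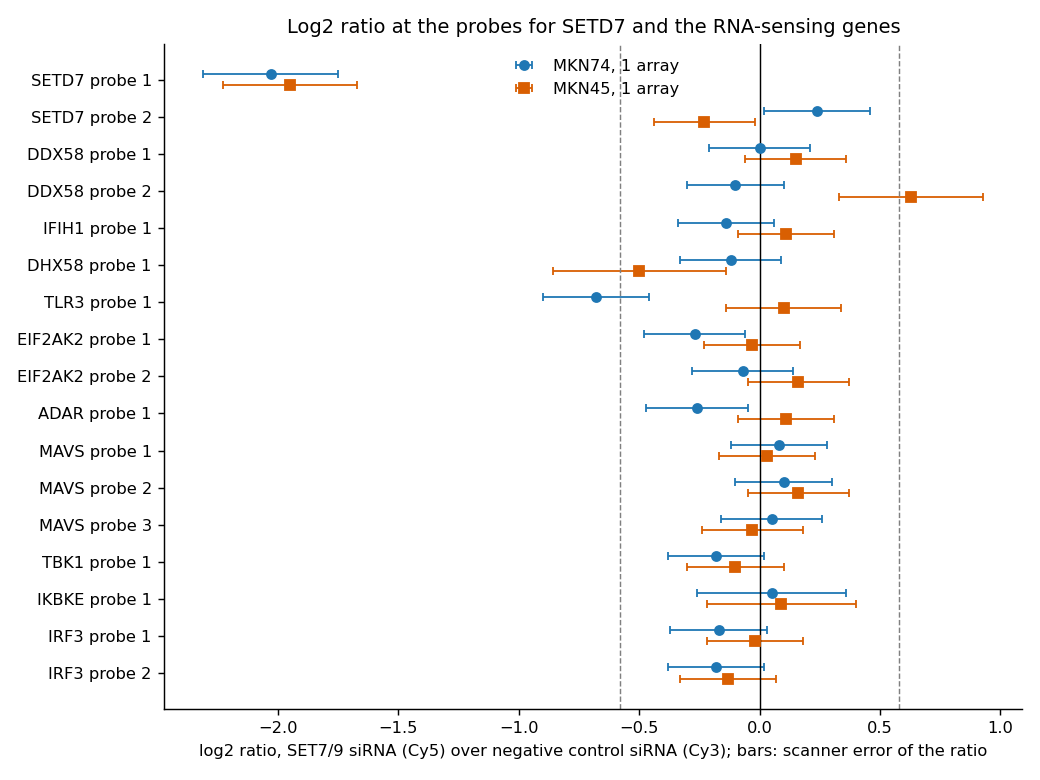
Log2 ratio of SET7/9 siRNA (Cy5) over negative control siRNA (Cy3) at each probe for SETD7 and the RNA-sensing genes, with circles for MKN74 and squares for MKN45 (1 array each), bars for the scanner error and dashed lines at 1.5-fold. SETD7 probe 1 lies near -2 in both lines, and of the members only TLR3 in MKN74 (-0.68) and DDX58 probe 2 in MKN45 (0.63) lie past a dashed line.

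Against all probes, 1 of 15 member probes was at least 1.5-fold lower in MKN74 and 0 of 15 higher, where 1.76% and 3.78% of the 20674 probes above background in at least 1 channel were lower and higher. Among the 18582 probes above background in both channels, as all members were, these shares were 1.45% and 0.640%. In MKN45, 0 of 15 member probes were lower and 1 of 15 was higher, against 1.97% and 4.81% of 22830 probes, or 1.62% and 0.814% of the 20281 probes measured in both channels. A single probe of 15 in either direction is the smallest count above 0 and is not read as a property of the group.

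The sensors are DDX58, IFIH1, DHX58 and TLR3. DDX58 was represented by a pair of probes on the same transcript record, whose starts lie 330 bases apart on the minus strand of chromosome 9 (GRCh37). Their first 30 bases are shown because the probes gave opposite orders of the cell lines. No base is marked in these sequences.
DDX58 probe 1 (chr9:32455428-32455457): taagtgtttgacaattcctcctttacacac
DDX58 probe 2 (chr9:32455758-32455787): gtacatgacacagtagttgcttgataatag

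At DDX58 probe 1 the signals were 111 (control) and 111 (SET7/9 siRNA) in MKN74, and 146 and 161 in MKN45. The log2 ratios were 0.00 ± 0.21 and 0.15 ± 0.21. At DDX58 probe 2 the signals were 414 and 387 in MKN74, and 22.6 and 34.9 in MKN45. The highest signals of probe 1 were thus in MKN45 and those of probe 2 in MKN74. The log2 ratios of probe 2 were -0.10 ± 0.20 in MKN74 and 0.63 ± 0.30 in MKN45, the latter a ratio of 1.55 on a dim spot that became 0.23 with another background correction (normexp). DDX58 therefore had 1 probe past the cutoff in MKN45 and 1 that was not.

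IFIH1, the sensor of long duplex RNA, had control and knockdown signals of 1371 and 1243 in MKN74 and of 473 and 512 in MKN45. Its log2 ratios, -0.14 ± 0.20 and 0.11 ± 0.20, were both smaller than their error. DHX58 (LGP2), a helicase without signalling domains that tunes the other cytosolic sensors, had signals of 219 and 202 in MKN74 and of 22.6 and 16.0 in MKN45. Its log2 ratios were -0.12 ± 0.21 and -0.50 ± 0.36. The MKN45 value was the lowest of any member there, it did not reach the cutoff, and it came from signals near the detection limit.

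TLR3 had 1 probe on the plus strand of chromosome 4 (GRCh37), whose first 30 bases are given because it was the member past the cutoff in MKN74.
TLR3 probe 1 (chr4:187005890-187005919): ctgaaccatgcactctgtttgcgaagagga

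TLR3 signals were 119 with control siRNA and 74.4 with SET7/9 siRNA in MKN74, and 47.5 and 50.8 in MKN45. The log2 ratio of MKN74 was -0.68 ± 0.22, a change of -37.7% on 1 array, and that of MKN45 was 0.10 ± 0.24. The MKN74 ratio kept its sign with normexp background correction but was then -0.38, inside the cutoff. With no dye normalization it was -0.69.

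EIF2AK2 and ADAR act on duplex RNA directly. EIF2AK2 probe 1, whose 60 bases are spread over 5495 bases of chromosome 2, had signals of 4147 and 3447 in MKN74 and of 1687 and 1650 in MKN45. Probe 2 had 248 and 236 in MKN74 and 117 and 131 in MKN45. The log2 ratios were -0.27 ± 0.21 and -0.03 ± 0.20 at probe 1, and -0.07 ± 0.21 and 0.16 ± 0.21 at probe 2. Only probe 1 in MKN74 exceeded its error. ADAR had the signals 6751 and 5639 in MKN74 and 4236 and 4569 in MKN45, with log2 ratios of -0.26 ± 0.21 and 0.11 ± 0.20. In MKN74 the knockdown signal thus differed from the control by -16.5% for ADAR and -16.9% for EIF2AK2 probe 1, and neither reached 1.5-fold.

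MAVS, the mitochondrial adaptor, had 3 probes. In MKN74 their control and knockdown signals were 2594 and 2749 (probe 1), 1168 and 1252 (probe 2) and 179 and 186 (probe 3). In MKN45 they were 764 and 779, 264 and 296, and 158 and 155. All 6 log2 ratios lay between -0.03 and 0.16, each within its error of 0. MAVS was, with IKBKE, 1 of the 2 members whose gene ratio was above 0 in MKN74.

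TBK1, the main kinase for IRF3, had signals of 627 and 554 in MKN74 and of 712 and 662 in MKN45, and log2 ratios of -0.18 ± 0.20 and -0.10 ± 0.20. IKBKE, its inducible relative, was dim in both lines, with signals of 25.1 and 26.0 in MKN74 and of 22.6 and 24.1 in MKN45. Its log2 ratios, 0.05 ± 0.31 and 0.09 ± 0.31, carried the largest error of any member in MKN74. IRF3 had signals of 980 and 869 (probe 1) and 1191 and 1053 (probe 2) in MKN74, and of 1065 and 1048 (probe 1) and 1123 and 1028 (probe 2) in MKN45. The IRF3 log2 ratios were -0.17 and -0.18 in MKN74 and -0.02 and -0.13 in MKN45, with errors of 0.20 throughout. The probes of IRF3 therefore differed from each other by less than their errors in each line.

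**Figure D2:**
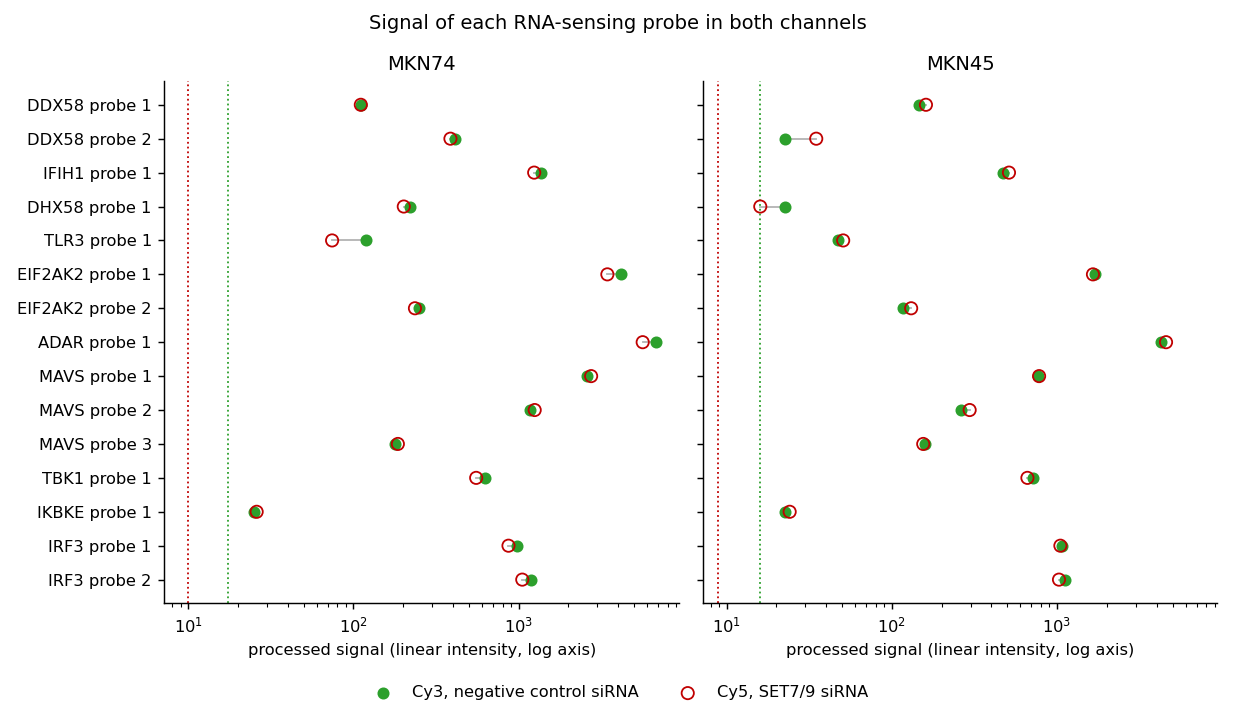
Processed signal of each RNA-sensing probe on a log axis, filled green for Cy3 (negative control siRNA) and open red for Cy5 (SET7/9 siRNA), in MKN74 (left) and MKN45 (right). Dotted lines mark the lowest signal called well above background in Cy3 (green, 17.4 and 15.9) and in Cy5 (red, 9.96 and 8.89). DDX58 probe 2, DHX58 and IKBKE lie near them in MKN45, and IKBKE also in MKN74.

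With 1 value for each gene (the mean of its probes), the median of the members' log2 ratios was -0.16 (MKN74) and 0.08 (MKN45) across the 10 genes. The medians over all genes measured in both channels were -0.008 and -0.001. In MKN74 8 of 10 members were below 0 (7 with normexp, 9 with no dye normalization). In MKN45 3 of 10 were below 0 (4 with either alternative), and 7 of 10 above it. Of all genes measured in both channels, 48.0% in MKN74 and 49.8% in MKN45 were at or above 0. By role, the 4 sensors had a median of -0.13 in MKN74, with 4 below 0, and of 0.11 in MKN45, with 1 below 0. EIF2AK2 and ADAR had a median of -0.21 and of 0.09. Neither the medians nor the counts carry a test, since each line has 1 array.

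The ratio itself differed between the lines by at least 1.5-fold at 2 of 15 member probes, both with the higher ratio in MKN45. These were TLR3, with a difference of 0.78 ± 0.32 (scanner error) on the log2 scale, and DDX58 probe 2, with 0.73 ± 0.37. With normexp correction these differences were 0.39 and 0.21, and 0 of 15 member probes differed by 1.5-fold. No member probe had a ratio 1.5-fold lower in MKN45. Over the 17362 probes measured in both channels on both arrays, 1.60% had a ratio at least 1.5-fold higher in MKN45 and 0.927% at least 1.5-fold lower. The difference was above 0 at 12 of 15 member probes, several of which share a gene. The share of all probes above 0 was not counted, so this is not read as particular to the members. The median difference was 0.16 over the member genes, each the mean of its probes, and 0.0 over those 17362 probes taken singly. Cell line and culture cannot be told apart here, and the difference was not tested.

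The only fit with residual spread that the design allowed took both arrays as replicates of the knockdown. In limma, with 1 residual degree of freedom, 0 of 15 member probes and 0 of 19595 probes (0%) had a Benjamini-Hochberg adjusted p under 0.05. The adjusted p of the members ran from 0.402 (DHX58) to 0.954 (IFIH1). At an unadjusted p under 0.05 there were also 0 members, against 2569 of all probes (13.1%). With normexp background correction limma called 1708 of 19595 probes, 0 of them members, and 3 member probes had an unadjusted p under 0.05. The share of all probes at that unadjusted p was not counted with normexp. The 3 are therefore not read as particular to the members. SETD7 probe 1 itself had an adjusted p of 0.255 in limma, so a ratio near -2 in both lines was not called by this fit.

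The control channel showed how the RNA-sensing genes differed between the MKN74 and MKN45 cultures given the negative control siRNA. These were separate cultures without SET7/9 siRNA, not the same cells before knockdown. Levels were scaled to the 75th percentile of each array, and only a probe's own signals were set against each other. The control level was at least 1.5-fold lower in MKN45 at 8 of 15 member probes and at least 1.5-fold higher at 0 of 15. Over the 17414 probes above background in Cy3 on both arrays the shares were 28.1% and 27.9%. The median difference (MKN45 minus MKN74, log2 scale) was -1.08 over the 10 member genes, each the mean of its probes. Over all those probes, taken singly, it was 0.03. Less RNA in each cell and fewer expressing cells cannot be told apart in these bulk samples. Nor can cell line, culture and response to the control siRNA, without replicates or untransfected cells. The level difference was not tested.

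**Figure D3:**
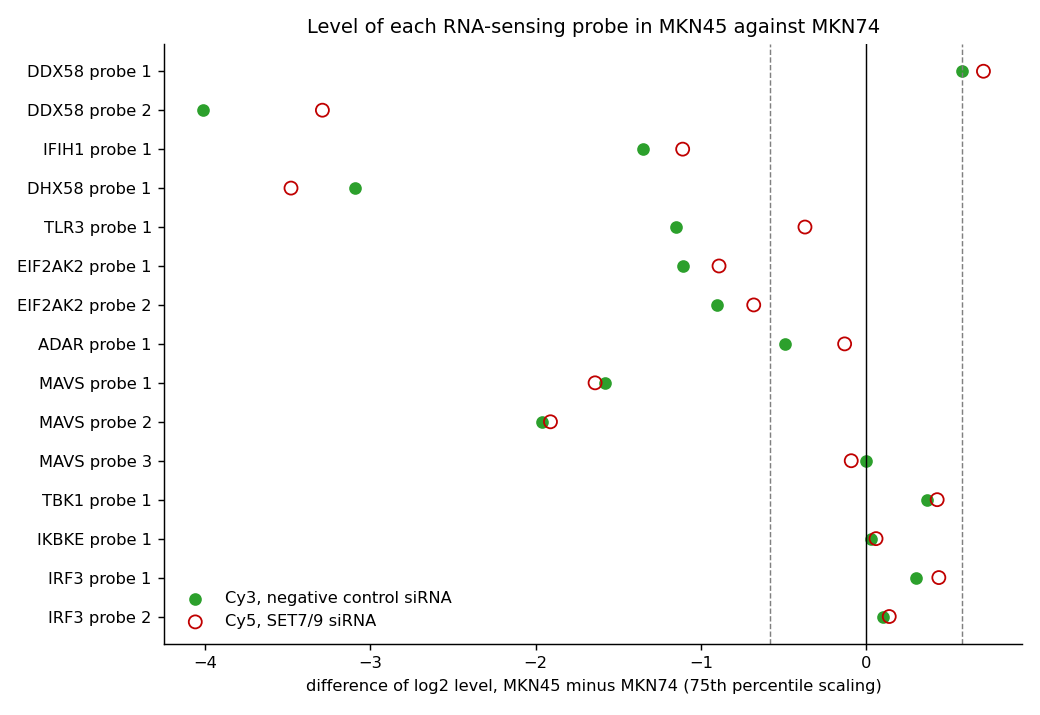
Difference of the log2 level, MKN45 minus MKN74, at each RNA-sensing probe, filled green for Cy3 (negative control siRNA) and open red for Cy5 (SET7/9 siRNA), with dashed lines at 1.5-fold. Sensor, EIF2AK2 and MAVS probes lie mostly left of 0, down to -4.01 at DDX58 probe 2, while TBK1, IKBKE and IRF3 lie between 0.03 and 0.37 in Cy3.

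Among the sensors, DHX58 had a control level 8.51-fold lower in MKN45 (difference -3.09). IFIH1 was 2.55-fold lower (-1.35) and TLR3 2.21-fold lower (-1.15). DDX58 was 16.2-fold lower at probe 2 (-4.01) and 1.49-fold higher at probe 1 (0.58), just inside the cutoff. Of the proteins that act on duplex RNA, EIF2AK2 was 2.16-fold lower at probe 1 and 1.86-fold lower at probe 2, while ADAR was 1.40-fold lower, inside the cutoff. MAVS was 2.99-fold and 3.89-fold lower at probes 1 and 2, and its probe 3 showed a difference of 0.00. TBK1 and IRF3 did not share this order, and IKBKE, near the detection limit in both lines, gave no firm order. TBK1 differed by 0.37, IKBKE by 0.03, and IRF3 by 0.30 and 0.10, all inside the cutoff and all towards a higher level in MKN45. IKBKE was instead lower in MKN45 with Aquantile scaling (-0.78, past the cutoff) and with normexp, loess and Aquantile scaling (-0.17).

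The Cy5 channel, a separate transfection of each line, gave the same sign at 15 of 15 member probes, with 7 at least 1.5-fold lower in MKN45 and 1 higher. Of the 19536 probes above background in Cy5 on both arrays, 28.0% were lower and 29.3% higher. Both channels are read on the same spots, and 94.5% of all 17362 probes measured in both had the same sign, so the shared sign is not read as a property of the members. The exception to the lower count was TLR3, whose difference was -0.37 in Cy5 and -1.15 in Cy3. DDX58 probe 1 was the 1 higher probe, at 0.71. The size of the differences at dim probes depended on the background correction, with -2.36 for DDX58 probe 2 and -1.83 for DHX58 after normexp, loess and Aquantile scaling, each still past 1.5-fold.

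Probes of DDX58 and of MAVS lay closer together for the knockdown ratio than for the level. The medians over all genes with several probes had the same order, so this is not read as particular to DDX58 and MAVS. The range between probes of the same gene was compared with that of the 3060 genes with at least 2 probes measured on both arrays. For the level difference the median range of those genes was 0.47. EIF2AK2 (0.22) and IRF3 (0.21) were below that median. MAVS had a range of 1.96, which 7.97% of genes reached, and DDX58 a range of 4.59, or 24.1-fold, which 13 genes (0.425%) reached. The DDX58 range rests on probe 2 near the detection limit in MKN45, and after normexp, loess and Aquantile scaling it was 2.57, or 5.93-fold, which 51 genes (1.67%) reached. For the knockdown ratio the range of DDX58 was 0.10 in MKN74 and 0.48 in MKN45, the latter reached by 6.44% of genes. The remaining members with several probes had ranges of 0.00 to 0.20 in MKN74 and 0.10 to 0.19 in MKN45, where the median of all such genes was 0.15 and 0.16. A DDX58 level from 1 probe thus reversed the order of the lines given by the other.

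**Figure D4:**
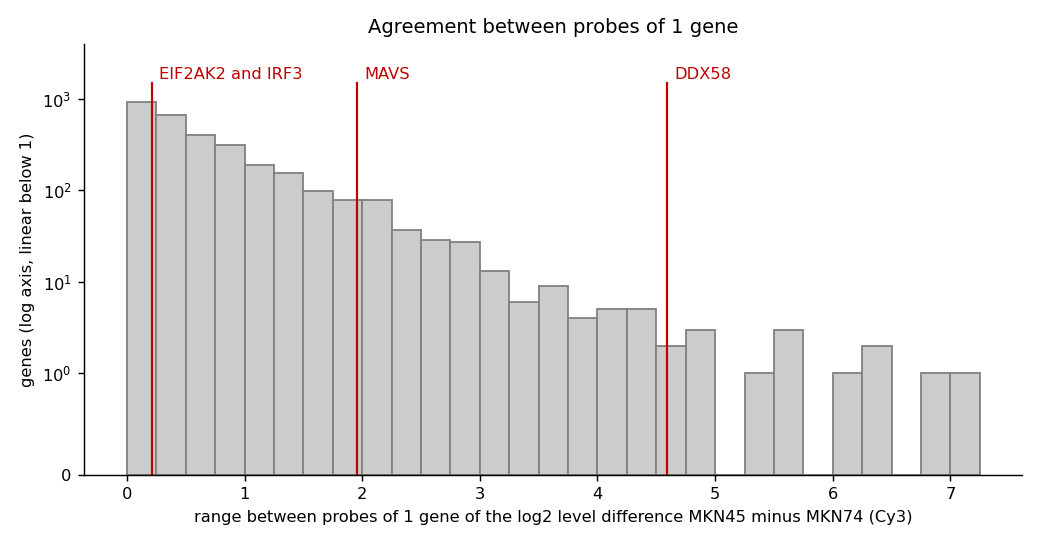
Number of genes (log axis, linear below 1) by the range between their probes of the Cy3 level difference MKN45 minus MKN74, for 3060 genes with at least 2 probes. Red lines mark the members, with EIF2AK2 and IRF3 near 0.22, MAVS at 1.96 and DDX58 at 4.59.

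Other genes of the pathway were taken from 3 lists. Of 18 signalling partners and regulators, which include the TLR3 adaptor TICAM1 and the ubiquitin ligase TRIM25, 17 were measured in each line. Medians of their log2 ratios were -0.01 (MKN74) and 0.02 (MKN45). None was past the cutoff in MKN74, and TNFAIP3, an inhibitor of NF-kappaB signalling, was past it in MKN45 with 0.60 ± 0.27 (signals 29.4 and 44.7) beside 0.55 ± 0.23 in MKN74. With normexp correction TNFAIP3 was inside it in both lines (0.20 and 0.32). Of 22 other RNA sensors and duplex RNA binding proteins, 19 were measured, with medians of -0.08 in MKN74 (0.014 with normexp, which turns its sign) and 0.01 in MKN45. OASL, an interferon-induced protein that enhances RIG-I signalling, and DDX60, an interferon-induced helicase, were past the cutoff in MKN74. OASL had -0.82 ± 0.23 and DDX60 -0.60 ± 0.21 there, beside 0.08 ± 0.21 and -0.31 ± 0.28 in MKN45, where 0 of 19 were past it. With normexp correction both were inside the cutoff in MKN74, OASL at -0.45 and DDX60 at -0.44.

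Of 11 interferon and IRF3 output genes, 7 were measured in each line. IFNB1, the interferon that RNA sensing is best known for inducing, was not well above background in either channel of either line. In MKN74 the median was -0.58 and 7 of 7 measured genes were below 0. The genes past the cutoff in MKN74 were CCL5 (-0.93 ± 0.27), IFIT2 (-0.77 ± 0.22 and -0.93 ± 0.24 at its probes) and IL29. The IL29 value was -0.59 ± 0.55, above background in 1 channel (signals 17.2 and 11.4). IFIT1 lay just inside the cutoff (-0.58 ± 0.21). In MKN45 the median was 0.02, with 3 of 7 below 0, but the 7 genes were not the same in both lines. Over the 5 genes measured in both (IFIT1, IFIT2, IFIT3, IL28A and ISG15) the median was -0.44 in MKN74, with 5 below 0, and -0.07 in MKN45, with 3 below 0. IFIT2 had 0.02 ± 0.26 there at the probe that was measured. The gene past the cutoff in MKN45 was CXCL11 at 0.98 ± 0.52, above background in the SET7/9 siRNA channel only (signals 9.09 and 17.9). With both channels required, 6 genes were left in each line, with medians of -0.51 (MKN74) and -0.03 (MKN45). With normexp correction the MKN74 median of this list was -0.28, and 1 probe, of IFIT2 (-0.65), was past the cutoff there. CCL5 (-0.28), the other IFIT2 probe (-0.50), IL29 (-0.01) and, in MKN45, CXCL11 (0.19) were then inside it. The lists were chosen with earlier results of these data known. They are described by these counts only, beside the shares over all probes given above.

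**Figure D5:**
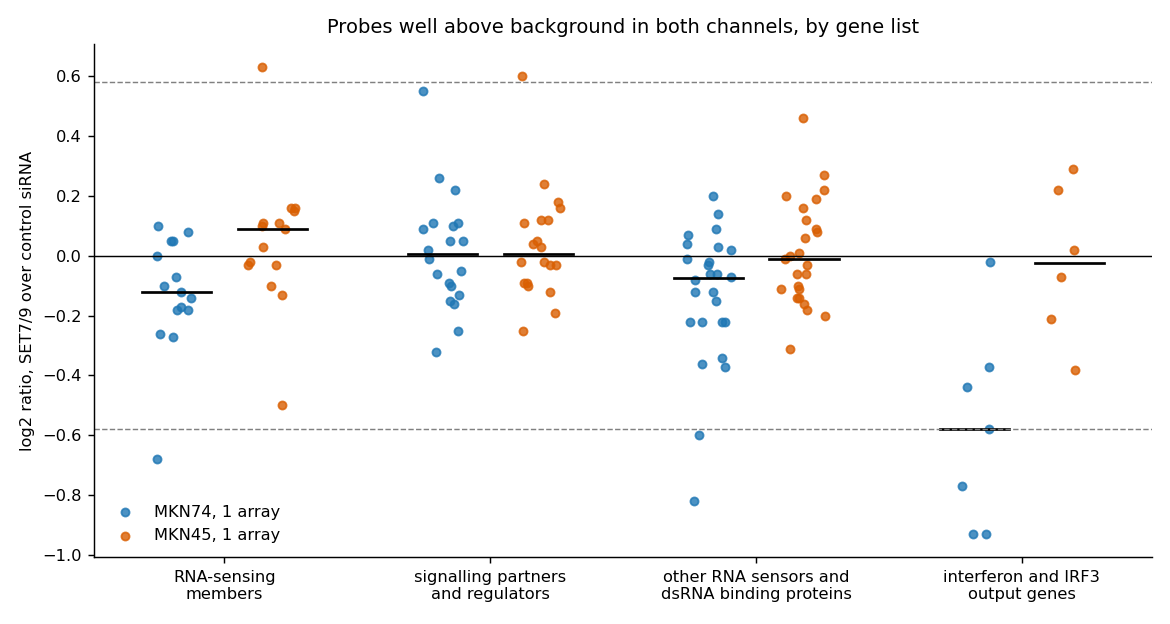
Log2 ratio of each probe above background in both channels, for the RNA-sensing members and the 3 pathway lists, in MKN74 (blue) and MKN45 (orange), 1 array each; black bars are medians over the plotted probes and dashed lines mark 1.5-fold. The MKN74 probes of the interferon and IRF3 output genes reach down to -0.93, while signalling partners lie around 0 in both lines.

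Promoters were searched because several members are interferon inducible. The window from 250 bases before to 50 after each start site was read from RefSeq (GRCh38.p14), and 8 of 10 members were matched in that promoter table, DDX58 under its present name RIGI. DHX58 and IRF3 were not searched. The letters GAAANNGAAA, a core shared by binding sites of interferon regulatory factors and STAT complexes, were sought on both strands, with overlapping matches counted. They occurred in 3 of the 8 matched members (IFIH1, TLR3 and EIF2AK2), and in 4.38% of 27305 genes (3.57% of 35116 windows). The stretches are shown 5′ to 3′ on the gene's strand with the match in capitals, for TLR3 and EIF2AK2 the only match and for IFIH1 the one nearest to the start site.
IFIH1 (chr2:162318686-162318715, minus strand): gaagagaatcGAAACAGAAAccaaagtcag
TLR3 (chr4:186069142-186069171, plus strand): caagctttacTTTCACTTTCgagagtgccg
EIF2AK2 (chr2:37156967-37156996, minus strand): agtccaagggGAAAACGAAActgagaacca

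In TLR3 the match lay on the opposite strand, and its first base was 4 bases before the start site. In EIF2AK2 and IFIH1 it lay on the gene's strand, 6 and 21 bases before the start site. All 3 genes had a lower control level in MKN45 and a log2 ratio below 0 in MKN74 (-0.14, -0.68 and -0.17 by gene). ADAR and DDX58, whose windows held no match, had both as well, with -0.49 for the level and -0.26 for the ratio of ADAR, and -1.72 and -0.05 for DDX58 averaged over its probes. The DDX58 ratio was 0.03 with normexp correction. A match in these letters is a description and says nothing of binding.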

How the data were processed

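Total RNA from siRNA-transfected MKN74 and MKN45 cells was hybridised by the authors to 2 two-colour Agilent arrays, 1 for each cell line, both on 1 slide and scanned together. The authors deposited Agilent Feature Extraction 10.7.3.1 output. Per the file headers, a spot has an intensity in either channel on a linear scale, scanned, background-subtracted and dye-normalized. The log10 ratios deposited are Cy5 over Cy3 after that normalization, with their error, beside quality flags. A deposited table of log2 ratios had the scale, direction and centring of the scanner ratios. Probe positions are on GRCh37, per the file headers. Names were those of the array, and 9 of 10 member symbols matched RefSeq's gene table as written, with DDX58 matched through its synonym as RIGI.

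Log10 ratios were converted to log2, without control and outlier spots. Probes entered the counts when 50% or more of their spots were flagged well above background in Cy3, Cy5 or both. The study's 1.5-fold cutoff was used. Levels were log2 signals minus the array's 75th percentile. limma 3.58.1 (R 4.3.3) was used for lmFit, eBayes and normexp (offset 50) with loess, and was tested on simulated data. Python 3.11.15 with pandas 2.3.3 made the counts. The number of arrays limits the precision.

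The members and the lists were chosen with earlier results of these data known. Named were all members, SETD7, and from each list the genes past 1.5-fold, at most 3 for each list and line among those measured in both channels; IL29 and CXCL11, measured in 1 channel, were added after their values were seen. The alternatives were normexp with loess, median centring, both-channel and no filters, the deposited table, a 2-fold cutoff, outlier spots kept, the brightest probe, Aquantile scaling and the Cy5 channel. Ratios with no dye normalization were added after seeing the data.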

Additional observations from a re-analysis of the deposited data

Results flagged for a closer look

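In 5 member genes the log2 ratio had opposite signs in the cell lines, with MKN74 below 0 and MKN45 above 0, as in 18.0% of the 15205 genes measured in both lines. The difference, MKN45 minus MKN74, was 0.44 for DDX58, 0.25 for IFIH1, 0.78 for TLR3, 0.23 for EIF2AK2 and 0.37 for ADAR. The difference was not tested, because each line has 1 array, and with 1 sample a line a sign alone separates the lines. The opposite signs remained with no dye normalization, on the same spots, in all 5 genes. With normexp correction they were found in IFIH1, TLR3, EIF2AK2 and ADAR, as in 15.4% of all genes. DDX58 lost them, with both lines above 0 (0.03 and 0.20). IKBKE then had opposite signs in the reverse order, with 0.03 in MKN74 and -0.06 in MKN45. With normexp correction the difference was 0.17 for DDX58 and 0.39 for TLR3. Of the 7 probes of the 5 genes named first, 4 had a ratio within its scanner error in MKN74 (IFIH1, EIF2AK2 probe 2 and both DDX58 probes). In MKN45 6 did, all but DDX58 probe 2.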

How the results depend on the processing

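No member value past 1.5-fold changed sign under the alternatives run. With normexp and loess, 0 member probes were past 1.5-fold in MKN74 (lower) and 0 in MKN45 (higher), and with a 2-fold cutoff the counts were also 0 and 0. With no dye normalization, an alternative added after seeing the data, 1 member probe, DHX58 at -0.61, was past 1.5-fold lower in MKN45. Normexp and loess turned the MKN74 median of the other RNA sensors from -0.085 to 0.014 and moved that of the interferon and IRF3 output genes from -0.581 to -0.282. The median control level difference of the members was -1.076, and became -0.832 with normexp, loess and Aquantile scaling, -0.579 in the Cy5 channel and -0.801 with the brightest probe of each gene. The remaining 88 values of these results stayed within the spread or within 1.5 times their count, and of the values of single member probes 183 did and 42 did not. limma called 0 member probes under every setting run, while its calls over all probes were 1708 with normexp and 2 with the both-channel filter. Of all probes past 1.5-fold, 68.3% were higher in MKN74 and 71.0% in MKN45, against 30.6% and 33.5% when both channels had to be above background, 50.0% and 60.0% with normexp, 41.8% and 41.2% with no filter, and 30.1% and 33.1% in the deposited table. The slide could not be fitted as a block because both arrays lay on 1 slide, and leaving out an array leaves no value for its line. No paired analysis was possible because each line has 1 array. Signals of DDX58 probe 2 and DHX58 in MKN45, and of IKBKE in both lines, were near the detection limit and allow no firm ratio.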

Other observations

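Among the signalling partners, a pair of genes was measured in 1 line only, named here after their values were seen. IRF7, a transcription factor that extends the interferon response, had control and knockdown signals of 6486 and 6228 in MKN74, and its signals of 4.42 and 4.66 in MKN45 were not well above background. NLRX1, a mitochondrial protein reported to restrain MAVS signalling, showed the opposite order, with 4.49 and 4.15 in MKN74, not well above background, and 5185 and 5809 in MKN45. The log2 ratio of each in the line where it was measured was -0.06 ± 0.20 for IRF7 and 0.16 ± 0.20 for NLRX1. Each gene has 1 probe on the array. Of all probes, 18582 in MKN74 and 20281 in MKN45 were measured in both channels, and 17362 were so on both arrays. Measurement in 1 line only is therefore not read as particular to these genes.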
